A study of Mus musculus with 6 samples.

Results

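The 10 genes described here, *Gzma*, *Gzmb*, *Gzmc*, *Gzmk*, *Prf1*, *Nkg7*, *Srgn*, *Serpinb6b*, *Serpinb9* and *Serpina3g*, encode granzymes, perforin, granule proteins and protease inhibitors. They were chosen by name for these roles, with earlier results of these data known, out of 56748 genes in the table of counts. The study asked how expression in mouse CD4 T cells grown toward regulatory T cells (Tregs) differs when an antisense oligonucleotide (ASO) against *Pgam*, which encodes a glycolytic enzyme, is added in place of a scrambled one. Polyadenylated RNA was sequenced in bulk from 6 libraries, 3 with each ASO, and the tables give estimated counts per gene. All cells were primary and WT, from C57BL/6 mice aged 6 to 10 weeks, and were enriched as naïve CD4 cells by negative selection. The labels name splenocytes as the source, and the methods name spleen and lymph nodes. For 72 hr the cells grew on plate-bound anti-CD3 (2 μg/mL) with soluble anti-CD28 (2 μg/mL), murine IL-2 (10 ng/mL), human TGF-β (1 ng/mL), anti-IFNγ (5 μg/mL) and anti-IL-4 (5 μg/mL). Either ASO was present at 10 μM from the start, and cells were not sorted before RNA was taken. How many mice gave the cells is not given in the sources used here. Libraries are named below by their label, scramble or ASO, and values are given in the order of replicates 1 to 3. The totals were 17588755, 18032805 and 16231127 counts under the scramble label and 16589933, 15860476 and 16803881 under the ASO label.

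Cytotoxic lymphocytes kill by releasing granules that hold granzymes, a family of serine proteases, and perforin, a protein that forms pores in the membrane of the target cell. Granzymes are activated by cathepsins while the granule matures, and are stored bound to the proteoglycan serglycin. Serpins in the cytosol inactivate proteases that leak from granules or lysosomes. Activated CD4 T cells, Tregs among them, can also make granzyme B and perforin, and Tregs can use them to kill the cells they suppress.

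The transcripts that the ASO was meant to lower were examined first. Counts of *Pgam1* were 10655, 8847 and 11414 under the scramble label and 10601, 10299 and 11949 under the ASO label. Those of *Pgam2*, which is best known from muscle, were 93, 125 and 46 against 48, 42 and 44. The groups overlapped for both genes. Since counts of *Pgam1* were not lower under the ASO label, groups are named by label throughout, and these files hold no measure of the protein. Values are also given as counts-per-million values (CPM) scaled with trimmed mean of M values (TMM) factors. Differences were tested with edgeR's quasi-likelihood test over all genes that passed a filter on low counts. A gene is said to have risen or fallen under the ASO label where the p-value, adjusted over all 14936 genes tested, was under 0.05. These p-values measure the spread between these 6 libraries and nothing wider. The log2 fold change (ASO label over scramble label) was 0.18 for *Pgam1* (SE 0.13, edgeR adjusted p = 0.331) and -0.84 for *Pgam2* (SE 0.31, edgeR adjusted p = 0.0854). With each library left out, that of *Pgam1* ran from 0.05 to 0.33 (edgeR adjusted p from 0.0528 to 0.793). *Pgam2* passed the test with scramble replicate 3 left out (log2 fold change -1.11) and with no filter, with edgeR adjusted p-values from 0.0144 to 0.286 over the alternatives. Of the 31-base stretches of *Pgam1*, 37.1% also occur in other genes, all of them in *Pgam1-ps2*, a pseudogene.

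The label CD4 T cells was checked against marker genes. Of 5 CD4 T cell markers, 5 were detected, with *Cd4* the most abundant, and their summed level was 2088, 2286 and 1912 CPM under the scramble label and 1577, 1596 and 1647 CPM under the ASO label. In this list *Cd28* and *Cd5* fell (log2 fold changes -0.66 and -0.49), and the sum was lower in each library with the ASO label. The 2 CD8 T cell markers summed to 11.3, 13.5 and 10.8 CPM against 14.6, 10.9 and 15.7 CPM, and the 2 went opposite ways. *Cd8b1*, the more abundant, did not pass (log2 fold change -0.20, edgeR adjusted p = 0.454), and *Cd8a* rose (log2 fold change 1.12). Since natural killer (NK) cells, mast cells and gamma delta T cells also make granule proteins, their markers were counted too. Of 9 NK and innate lymphoid markers 7 were detected, and the sum was 13.5, 18.6 and 12.8 CPM against 9.25, 8.28 and 8.34 CPM. The list went both ways. *Klrd1*, the most abundant, and *Kit* fell (log2 fold changes -2.09 and -1.68), while *Klrk1* (log2 fold change 0.83, edgeR adjusted p = 0.0968) and *Tyrobp* were higher in each ASO library. *Klrk1* did not pass, and *Tyrobp* was below the filter. Without ASO replicate 3 and with no filter *Klrk1* passed (edgeR adjusted p from 0.0258 to 0.367 over the alternatives). With *Kit*, which is also in the mast cell list, left out, the sum was 8.22, 13.2 and 6.82 CPM against 8.32, 6.80 and 5.56 CPM, and the groups overlapped. *Klrb1c* and *Klra8* were at 0 in every library, and *Ncr1* did not exceed 3 counts in any library.

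The 4 gamma delta T cell markers, all detected, summed to 6.08, 6.64 and 6.51 CPM against 9.32, 8.98 and 8.34 CPM. *Trdc*, the most abundant, was lower in each ASO library (log2 fold change -0.40, edgeR adjusted p = 0.248), and *Tcrg-C1* rose (log2 fold change 1.23). *Sox13* was higher in each ASO library (mean 0.652 against 1.35 CPM) but did not pass. *Blk*, below the filter, averaged 0.256 against 0.584 CPM, and its groups overlapped. Without *Trdc* the sum was 2.36, 2.38 and 3.22 CPM against 6.52, 6.03 and 5.56 CPM, without overlap. Without *Tcrg-C1* the sum was 4.16, 5.24 and 4.59 CPM against 5.53, 4.56 and 4.26 CPM, and the groups overlapped. Of 9 mast cell and basophil markers 8 were detected, with *Kit* the most abundant and *Mcpt4* at 0, and their sum was 6.53, 7.94 and 7.62 CPM against 5.71, 5.71 and 5.80 CPM. Without *Kit* the direction turned, to 1.24, 2.54 and 1.61 CPM against 4.78, 4.23 and 3.02 CPM, again without overlap. *Mcpt8*, *Fcer1a* and *Cpa3* were higher in each ASO library, and *Cpa3* alone of these was tested (log2 fold change 1.09, edgeR adjusted p = 0.0526). *Cpa3* passed in 4 of 13 alternatives, among them without scramble replicate 2 (edgeR adjusted p = 0.0415), and adjusted p ran from 0.0399 to 0.157 over the 13.

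All 6 B cell markers were detected and summed to 329, 458 and 222 CPM under the scramble label and to 85.3, 119.8 and 149.9 CPM under the ASO label. *Ighm* alone made up 96.0% of that sum, and it fell (log2 fold change -1.58). Without *Ighm* the sum was 9.28, 11.6 and 6.63 CPM against 9.75, 8.92 and 7.87 CPM, and the groups overlapped. All 7 myeloid markers were detected, summing to 10.6, 9.88 and 8.67 CPM against 9.63, 8.08 and 9.41 CPM, with *Cd68* the most abundant. This list also went both ways, with *Cd68* lower and *Lyz2* higher in each ASO library. Of the 5 tested, 3 had a log2 fold change above 0 and 2 below, and none passed. With all genes of a list summed, the groups did not overlap for CD4, NK, gamma delta, mast cell and B cell markers. They overlapped for CD8, myeloid and erythroid markers. The 4 erythroid markers summed to 2.76, 2.32 and 1.43 CPM against 1.30, 1.86 and 1.60 CPM. Of all single genes tested, 39.5% had groups that did not overlap. With each gene left out in turn, the CD4 sum was lower without overlap each time. The groups overlapped for gamma delta markers without *Tcrg-C1*, for B cell markers without *Ighm* and for NK markers without *Klrd1* or without *Kit*, and the mast cell sum turned without *Kit*. Leaving out single genes was chosen after seeing the data. The part of these cell types in the results below was not tested. The marker genes given with a change were named after their values were seen. Of these calls, that of *Cd28* held with each library left out. Without scramble replicate 1, *Cd5*, *Cd8a*, *Kit*, *Tcrg-C1* and *Ighm* did not pass, and without ASO replicate 2, *Cd5*, *Klrd1*, *Kit*, *Tcrg-C1* and *Ighm* did not. Without ASO replicate 1, *Cd8a* and *Ighm* did not, and *Ighm* failed without scramble replicate 2 and with no filter as well. The edgeR adjusted p-values with those libraries left out ran from 0.0506 for *Kit* to 0.106 for *Cd5*. In bulk RNA, fewer cells of a type and less RNA per cell cannot be told apart.

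Among the 10 genes, the serpin *Serpina3g* rose under the ASO label, to 2.35-fold its level under the scramble label. *Prf1* (perforin) and *Nkg7* were lower in each library with the ASO label than in any with the scramble label, *Gzmc* was higher in each, and all 3 lay close to the threshold of the test without passing it. *Gzmb*, by far the most counted of the granzymes, varied so much within each label that its groups overlapped. Of the 10 genes, 8 passed the filter on low counts, and *Gzma* and *Gzmk* had too few counts. Of these 8, 1 was called, or 12.5%, against 17.2% of all genes tested (2565 of 14936). By direction, 8.03% of all tested genes rose and 9.15% fell. The groups did not overlap for 5 of the 8 genes and for 39.5% of all tested genes. The median log2 fold change was -0.09 for the 8 genes and -0.01 for all tested genes. Whether the 10 genes differ from the rest as a group was not tested. Without a filter edgeR called 13.1% of all genes and 4 of the 10, and DESeq2 called 21.0% and also 4, which were *Gzmc*, *Prf1*, *Nkg7* and *Serpina3g* each time. The count over all genes moved with the libraries used, to 620 without scramble replicate 1, 1256 without scramble replicate 2, 871 without ASO replicate 1 and 391 without ASO replicate 2, but up to 3484 without scramble replicate 3 and 3319 without ASO replicate 3. Among the 8 genes, *Prf1* was called too without scramble replicate 2, *Gzmc* without scramble replicate 3 and *Nkg7* without ASO replicate 1, each with the values given further on.

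**Figure D1:**
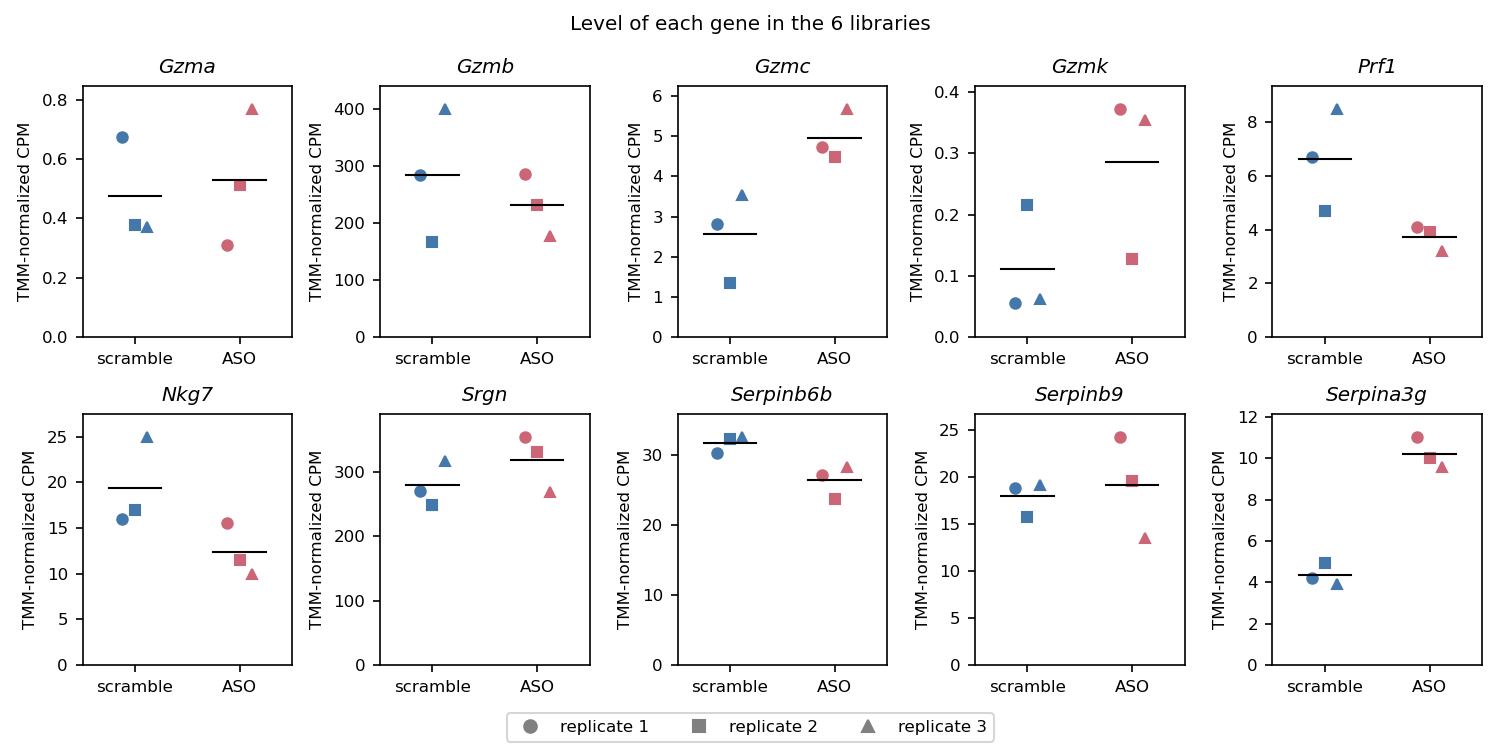
TMM-normalized CPM of each of the 10 genes (vertical axis, from 0 and scaled for each gene) in the 3 libraries of each label, with a marker shape per replicate number and a line at the mean. *Serpina3g* sits between 3.90 and 4.91 CPM under the scramble label and between 9.59 and 11.06 CPM under the ASO label, while *Gzmb* spans 167 to 399.8 CPM under the scramble label alone.

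Granzyme B, the product of *Gzmb* (ENSMUSG00000015437), cleaves proteins after aspartate and so activates caspases in the target cell. The gene lies on chromosome 14 from 56258838 to 56262260 (GRCm38). It was counted 5050, 3092 and 6452 times under the scramble label and 4606, 3600 and 3006 times under the ASO label. Scramble replicate 3 was the highest and ASO replicate 3 the lowest by count, and scramble replicate 2 lay below every ASO library in CPM, so the groups overlapped. *Gzmb* averaged 284 ± 116 CPM under the scramble label and 232 ± 54.1 CPM under the ASO label (SD, n = 3 each). The log2 fold change was -0.29 (SE 0.34, 95% interval -1.11 to 0.53, edgeR adjusted p = 0.580). Without scramble replicate 3 it turned to 0.04 (edgeR adjusted p = 0.938, against 0.223 to 0.938 over all alternatives). At this spread neither a fall by 1.11 nor a rise of 0.53 on the log2 scale lies outside the interval. Of the 31-base stretches of *Gzmb*, 1.35% also occur in another gene, *Gzmc*.

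Its neighbour *Gzmc* (ENSMUSG00000079186) encodes granzyme C, and lies on the same strand from 56231441 to 56234656. The 24182 bases between *Gzmc* and *Gzmb* hold no other coding gene. *Gzmc* was counted 50, 25 and 57 times under the scramble label and 76, 70 and 96 times under the ASO label. Each ASO library was above each scramble library, with ASO replicate 3 the highest and scramble replicate 2 the lowest. *Gzmc* averaged 2.57 ± 1.11 CPM under the scramble label and 4.96 ± 0.631 CPM under the ASO label (SD, n = 3 each). The log2 fold change was 0.96 (SE 0.33, 95% interval 0.23 to 1.69), and the test was not passed (edgeR adjusted p = 0.0663). It was passed without scramble replicate 3 (log2 fold change 1.26, edgeR adjusted p = 0.0272), with DESeq2 (adjusted p = 0.0366) and with no filter (edgeR adjusted p = 0.00878), 3 of 13 alternatives over which adjusted p ran from 0.00878 to 0.153. Of the 31-base stretches of *Gzmc*, 14.8% also occur in other genes, mainly *Gzme*, *Gzmg*, *Gzmd* and *Gzmf*. Summed over the cluster of 7 granzyme genes that holds *Gzmb* and *Gzmc*, the log2 fold change was -0.27 (SE 0.33, edgeR adjusted p = 0.605), since *Gzmb* gave 98.3% of those counts. Without scramble replicate 3 that sum turned to 0.06.

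The number of *Gzmb* counts per *Gzmc* count, a ratio chosen after the values were seen, was 101, 124 and 113 under the scramble label and 60.6, 51.4 and 31.3 under the ASO label. Within each library the balance between these neighbouring genes was thus lower under the ASO label, and the groups did not overlap.

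Perforin is encoded by *Prf1* (ENSMUSG00000037202), on chromosome 10 from 61297833 to 61304680. Its counts were 119, 87 and 137 under the scramble label and 66, 61 and 54 under the ASO label. Each ASO library was below each scramble library, and scramble replicate 3 was the highest. *Prf1* averaged 6.63 ± 1.90 CPM under the scramble label and 3.74 ± 0.478 CPM under the ASO label (SD, n = 3 each). The log2 fold change was -0.82 (SE 0.25, 95% interval -1.39 to -0.26), and the adjusted p lay just outside the threshold (edgeR adjusted p = 0.0504). It passed in 5 of 13 alternatives, with DESeq2, with library size as the only scaling, with no filter, with at least 10 counts in every library and without scramble replicate 2 (log2 fold change -1.02, edgeR adjusted p = 0.0255). Over the 13 alternatives, adjusted p ran from 0.0140 to 0.144 and the log2 fold change from -1.02 to -0.61. *Gzmb* counts per *Prf1* count, also chosen after the values were seen, were 42.4, 35.5 and 47.1 against 69.8, 59.0 and 55.7, without overlap.

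The tryptases granzyme A and granzyme K are encoded by *Gzma* and *Gzmk* on chromosome 13, with 70627 bases and no other coding gene between them. They were near the limit of detection. *Gzma* had 6 to 12 counts per library under the scramble label and 5 to 13 under the ASO label, and *Gzmk* had 1 to 4 and 2 to 6. The groups overlapped for both. With no filter the log2 fold changes were 0.17 for *Gzma* (SE 0.65, edgeR adjusted p = 0.902, 0.746 to 0.990 over the alternatives) and 1.30 for *Gzmk* (SE 1.08, edgeR adjusted p = 0.525, 0.466 to 0.744). That of *Gzma* turned to -0.20 without ASO replicate 3, and that of *Gzmk* moved to 2.15 without scramble replicate 2. A difference between the labels was not detectable at this depth for either gene. Summed, the 2 genes had 13, 11 and 7 counts against 11, 10 and 19 (log2 fold change 0.47, edgeR adjusted p = 0.483).

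Together, *Gzma*, *Gzmb*, *Gzmc*, *Gzmk* and *Prf1* summed to 297, 178 and 409.9 CPM of all counts, with no TMM factor, under the scramble label and to 287, 236 and 189 CPM under the ASO label. *Gzmb* supplied 94.7% to 97.0% of this sum, so it followed *Gzmb*, with scramble replicate 3 highest and scramble replicate 2 lowest. The means were 295 ± 116 and 237 ± 49.0 CPM (SD, n = 3 each), and their difference of -58.0 CPM was smaller than the spread within the scramble label. That difference was -0.65 CPM without scramble replicate 3, -116 without scramble replicate 2 and -33.8 without ASO replicate 3.

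Of the 6 other mouse granzyme genes, *Gzmm* alone passed the filter, with a log2 fold change of -0.25 (SE 0.48, edgeR adjusted p = 0.744) that turned to 0.06 without ASO replicate 3 and to 0.00108 without scramble replicate 3. *Gzmg* and *Gzmn* were at 0 in every library, *Gzme* had 3 counts in ASO replicate 3 alone, and *Gzmf* had 1 to 12 counts under the scramble label and 4 to 13 under the ASO label. *Gzmd*, singled out after its values were seen, was at 0 in the 3 scramble libraries and had 6, 10 and 4 counts in the ASO libraries. With no filter *Gzmd* passed (edgeR adjusted p = 0.00371), but not without ASO replicate 2 (edgeR adjusted p = 0.0810, the highest of 9 alternatives, with 0.00351 the lowest). Since *Gzmd* was singled out for these counts, its p-values restate them and add no separate evidence. Its mean level was at least 2.42-fold higher under the ASO label, against a floor of 3 counts in each scramble library. This floor covers counting error only. Other genes hold 38.2% of the 31-base stretches of *Gzmd*.

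Upstream sequence is shown for *Gzmb* and for the 3 genes with the largest log2 fold changes of the 8, to show what lies before each start. The windows cover the 250 bases before the start in RefSeq (GRCm38.p6), and all 10 genes were matched, with 11 windows since *Srgn* has 2 starts. Capitals mark matches to the motifs TGTGGT (RUNX), TGANTCA (AP-1) and TTCNNNGAA (STAT), searched on both strands. The windows are chr14:56262335-56262584 for *Gzmb* and chr14:56234658-56234907 for *Gzmc* (both minus strand), chr10:61297586-61297835 for *Prf1* and chr12:104235897-104236146 for *Serpina3g* (both plus strand).
Gzmb: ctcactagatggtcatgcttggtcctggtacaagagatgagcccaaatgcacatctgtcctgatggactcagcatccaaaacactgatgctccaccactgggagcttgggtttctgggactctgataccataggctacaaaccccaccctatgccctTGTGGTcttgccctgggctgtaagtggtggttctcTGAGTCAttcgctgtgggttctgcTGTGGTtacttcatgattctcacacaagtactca
Gzmc: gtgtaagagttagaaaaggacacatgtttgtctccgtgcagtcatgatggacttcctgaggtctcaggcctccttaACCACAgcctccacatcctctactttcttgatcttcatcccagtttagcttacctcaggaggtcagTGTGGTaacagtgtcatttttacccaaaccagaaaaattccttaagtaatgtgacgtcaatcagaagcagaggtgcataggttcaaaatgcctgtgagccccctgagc
Prf1: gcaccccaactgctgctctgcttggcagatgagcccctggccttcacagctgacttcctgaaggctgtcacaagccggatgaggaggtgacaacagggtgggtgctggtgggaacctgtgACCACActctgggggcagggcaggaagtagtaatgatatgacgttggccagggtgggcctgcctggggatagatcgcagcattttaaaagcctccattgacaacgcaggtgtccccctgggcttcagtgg
Serpina3g: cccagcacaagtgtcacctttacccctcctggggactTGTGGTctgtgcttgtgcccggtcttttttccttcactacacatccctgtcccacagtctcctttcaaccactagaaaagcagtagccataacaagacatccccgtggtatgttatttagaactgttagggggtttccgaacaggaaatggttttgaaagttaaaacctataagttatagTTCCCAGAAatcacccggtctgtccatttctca

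The *Gzmb* window holds a RUNX match 29 to 34 bases and another 88 to 93 bases before the start, with an AP-1 match 52 to 58 bases before it. In *Gzmc* the RUNX matches lie 103 to 108 and 169 to 174 bases before the start, and in *Prf1* the single RUNX match lies 125 to 130 bases before it. *Serpina3g* has a STAT match 25 to 33 bases before the start and a RUNX match 208 to 213 bases before it. Over the 11 windows, 7 held the RUNX motif, against 14.05% of 32851 promoters of the same length. The STAT motif was in 2 windows (7.02% of all promoters) and the AP-1 motif in 1 (6.75%). The T-box motif GGTGTGA was in 2 (3.33%) and the interferon motif (GAAA, any 2 bases, GAAA) in 3 (2.98%). No match overlapped another. A match describes the letters in the window and not a site that is bound.

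Of the granule proteins, *Nkg7* (ENSMUSG00000004612), on chromosome 7 from 43437073 to 43438249, encodes a granule membrane protein needed for full degranulation. It had 285, 315 and 404 counts under the scramble label and 250, 180 and 169 under the ASO label. In CPM each ASO library was below each scramble library, narrowly so for ASO replicate 1 (15.5 CPM) against scramble replicate 1 (16.04 CPM). *Nkg7* averaged 19.4 ± 4.94 CPM under the scramble label and 12.4 ± 2.85 CPM under the ASO label (SD, n = 3 each). The log2 fold change was -0.65 (SE 0.21, 95% interval -1.11 to -0.18) and did not pass (edgeR adjusted p = 0.0588). It passed in 4 of 13 alternatives, with DESeq2, with library size as the only scaling, with no filter and without ASO replicate 1 (log2 fold change -0.84, edgeR adjusted p = 0.0495), and adjusted p ran from 0.00130 to 0.193 over the 13. No 31-base stretch of *Nkg7* occurs in another gene. NK and innate lymphoid markers went both ways under the ASO label, as given with the marker lists, and their part in the levels of *Prf1* and *Nkg7* was not tested.

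Serglycin, the proteoglycan core protein on which granzymes are stored, is encoded by *Srgn* (ENSMUSG00000020077) on chromosome 10 from 62493833 to 62527451. Its counts were 4812, 4593 and 5119 under the scramble label and 5708, 5150 and 4539 under the ASO label. ASO replicate 3 was lowest by count but lay among the scramble libraries in CPM, so the groups overlapped in CPM. *Srgn* averaged 279 ± 35.2 CPM under the scramble label and 318 ± 44.3 CPM under the ASO label (SD, n = 3 each), and the log2 fold change was 0.19 (SE 0.12, 95% interval -0.08 to 0.46, edgeR adjusted p = 0.301).

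**Figure D2:**
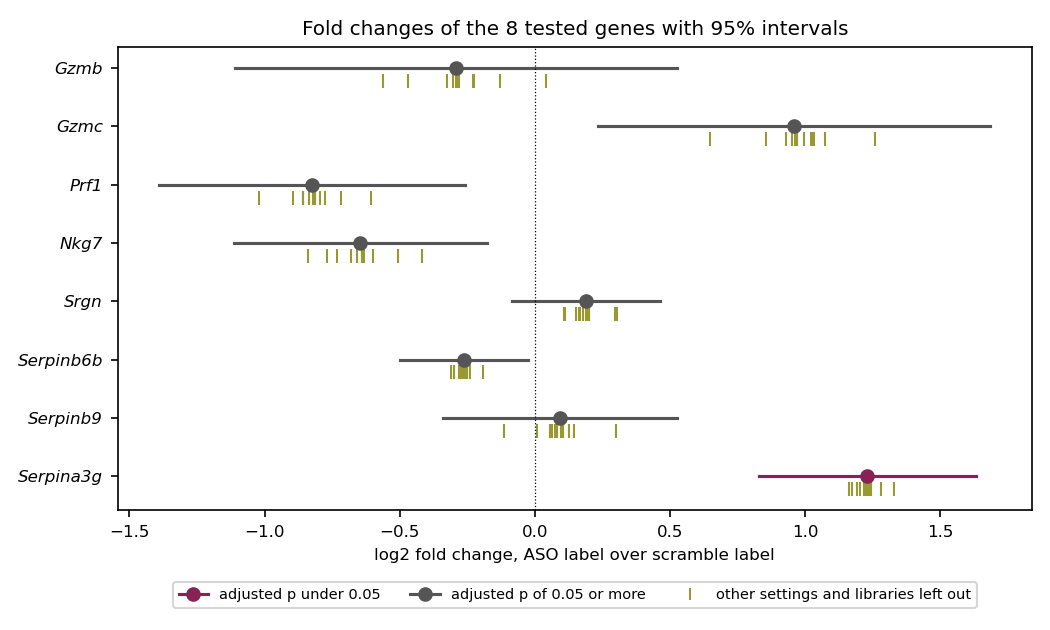
Log2 fold change (ASO label over scramble label, horizontal axis) of the 8 genes that passed the filter, with a point and its 95% interval from edgeR, and ticks for the values under other settings and with each library left out. The point of *Serpina3g* at 1.23 is the one with an adjusted p under 0.05, and the ticks of *Gzmb* run from -0.56 to 0.04.

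Of the 3 protease inhibitors, *Serpina3g* alone was called. *Serpina3g* (ENSMUSG00000041481), on chromosome 12 from 104236245 to 104241939, encodes an intracellular serpin that inhibits lysosomal cathepsins. It was counted 75, 91 and 63 times under the scramble label and 178, 156 and 162 times under the ASO label. The highest scramble library was far below the lowest ASO library, and each group was tight. It rose from a mean of 4.35 ± 0.517 CPM to 10.2 ± 0.757 CPM (SD, n = 3 each), or by 1.23 on the log2 scale (SE 0.18, 95% interval 0.83 to 1.63, edgeR adjusted p = 0.00336). It was called in all 13 alternatives, with log2 fold changes from 1.16 to 1.33 and adjusted p of at most 0.0287. Of the 31-base stretches of *Serpina3g*, 28.4% also occur in other genes, above all *Serpina3f* (59 counts over the 6 libraries), *Serpina3h* and *Serpina3i* (1 count each). Summed over the 11 *Serpina3* paralogs, of which *Serpina3g* gave 92.1% of counts, there were 84, 97 and 77 counts against 187, 169 and 173. That sum rose by 1.15 on the log2 scale (SE 0.17, edgeR adjusted p = 0.00315). Of the 10 other paralogs, 6 were at 0 in every library, and *Serpina3f* alone passed the filter (log2 fold change 0.14, edgeR adjusted p = 0.868), turning to -0.14 without scramble replicate 2 and to -0.04 without ASO replicate 2.

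*Serpinb6b* (ENSMUSG00000042842) and *Serpinb9* (ENSMUSG00000045827) lie side by side on chromosome 13, from 32965209 to 32979067 and from 33003250 to 33017957, with 24183 bases and no coding gene between them. *Serpinb9* encodes an inhibitor of granzyme B, and *Serpinb6b* a related intracellular serpin. *Serpinb6b* had 537, 597 and 526 counts under the scramble label and 437, 370 and 478 under the ASO label. Each ASO library was below each scramble library in CPM. *Serpinb6b* averaged 31.7 ± 1.28 CPM under the scramble label and 26.4 ± 2.36 CPM under the ASO label (SD, n = 3 each), with a log2 fold change of -0.26 (SE 0.11, 95% interval -0.50 to -0.03) that did not pass (edgeR adjusted p = 0.108). *Serpinb9* had 336, 293 and 309 counts against 392, 306 and 228. ASO replicate 1 was above all others and ASO replicate 3 below all others, so the groups overlapped. Its log2 fold change of 0.09 (SE 0.20, 95% interval -0.34 to 0.53, edgeR adjusted p = 0.768) turned to -0.11 without ASO replicate 1. The sum over 8 *Serpinb9* paralogs, 99.0% of it *Serpinb9*, had the same log2 fold change of 0.09 (edgeR adjusted p = 0.767) and also turned to -0.11 without ASO replicate 1.

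Of the 22 other clade B serpin genes, 12 were at 0 in every library and 2 passed the filter. *Serpinb6a*, the close relative of *Serpinb6b*, had 2305, 2903 and 2037 counts under the scramble label and 1412, 1395 and 1352 under the ASO label. It fell from a mean of 138 ± 16.7 CPM to 85.7 ± 5.05 CPM (SD, n = 3 each), with a log2 fold change of -0.68 (SE 0.10, edgeR adjusted p = 0.00354), with every ASO library below every scramble library. It was called in all 13 alternatives. Other genes hold 29.0% of the 31-base stretches of *Serpinb6a*, with 13.1% in *Nqo2*, 9.40% in *1110046J04Rik* and 3.81% in *Ripk1*. These 3 genes are not paralogs and overlap *Serpinb6a* on the opposite strand. The paralog *Serpinb6c* holds 1.13%. Summed over 5 *Serpinb6* paralogs, the counts were 2842, 3500 and 2563 against 1849, 1765 and 1830, and the sum fell by 0.59 on the log2 scale (SE 0.09, edgeR adjusted p = 0.00419), with 79.5% of the counts from *Serpinb6a*. *Serpinb6a* counts per *Serpinb6b* count, chosen after the values were seen, were 4.29, 4.86 and 3.87 under the scramble label and 3.23, 3.77 and 2.83 under the ASO label, without overlap. *Serpinb1a*, a neutrophil elastase inhibitor, had a log2 fold change of -0.88 (SE 0.41, edgeR adjusted p = 0.156).

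Levels of different genes were compared per length, as CPM per kb of annotated exon. Under the scramble label *Gzmb* (198 ± 81.0, SD, n = 3) and *Srgn* (159 ± 20.1) stood highest and did not differ beyond their spread. *Nkg7* (21.98 ± 5.60) and *Serpinb6b* (14.4 ± 0.585) followed, then *Serpinb9* (5.14 ± 0.530). *Gzmc* (2.87 ± 1.24), *Prf1* (2.56 ± 0.734) and *Serpina3g* (2.41 ± 0.287) did not differ beyond their spread, and *Gzma* (0.472) and *Gzmk* (0.0816) were lowest. Under the ASO label *Serpina3g* (5.67 ± 0.420) and *Gzmc* (5.55 ± 0.706) stood beside *Serpinb9* (5.48 ± 1.56), and *Prf1* was at 1.45 ± 0.185. For scale, the Treg factor *Foxp3* was at 71.1 ± 18.2 under the scramble label and 26.8 ± 5.03 under the ASO label.

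**Figure D3:**
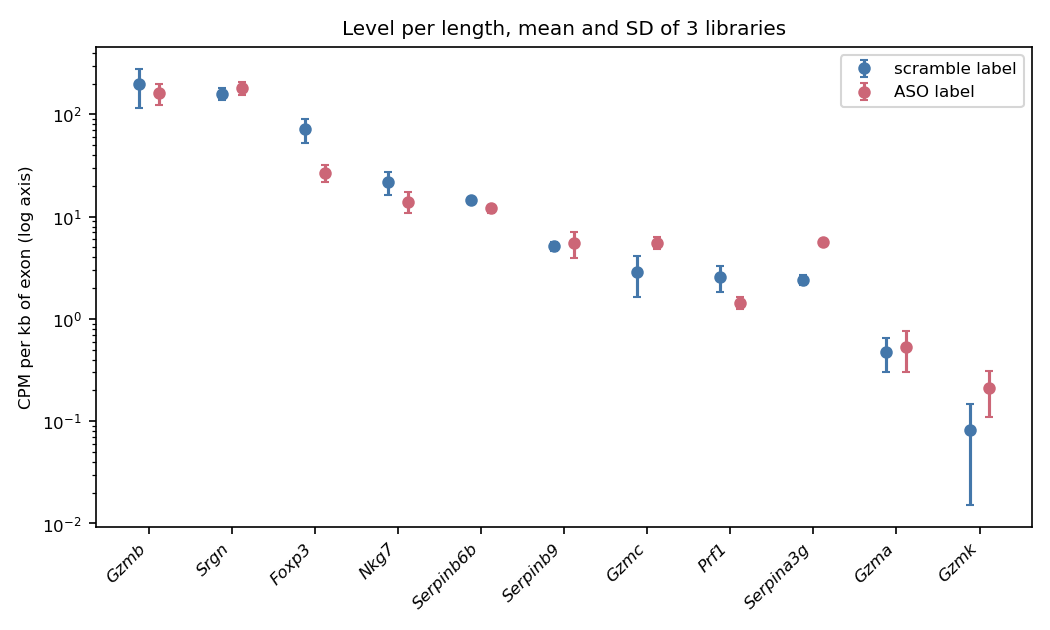
CPM per kb of annotated exon (log axis) of the 10 genes and *Foxp3*, in order of the mean under the scramble label, with points for the mean and bars for the SD of the 3 libraries of each label. *Gzmb* at 198 and *Srgn* at 159 lie far above *Prf1* at 2.56 under the scramble label.

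Genes of granule maturation and release were examined next, 22 in the list, 21 found in the table and 20 tested. Of these 20, 2 rose and 4 fell, with a median log2 fold change of -0.20. Over all tested genes 8.03% rose and 9.15% fell, with a median of -0.01. *Ctsw*, which encodes a cathepsin made by cytotoxic and NK cells, had 461, 486 and 377 counts under the scramble label and 151, 164 and 181 under the ASO label. It fell 2.47-fold, with a log2 fold change of -1.30 (SE 0.12, edgeR adjusted p = 0.000443) and no overlap. *Igf2r*, the mannose 6-phosphate receptor that sorts enzymes to lysosomes and granules, fell with a log2 fold change of -0.81 (SE 0.07, edgeR adjusted p = 0.000401). So did *Lyst*, a regulator of granule size and secretion, also with -0.81 (SE 0.13, edgeR adjusted p = 0.00446). Each of these 3 genes was called in all 13 alternatives. *Fasl*, the death ligand that kills independently of granzymes, rose with a log2 fold change of 0.68 (SE 0.17, edgeR adjusted p = 0.0257). It did not pass without scramble replicate 1, scramble replicate 2, ASO replicate 1 or ASO replicate 2 (edgeR adjusted p from 0.0633 to 0.108, while the lowest adjusted p over all alternatives was 0.000113). The other called genes, also named after their values were seen, were *Cst7* (cystatin F, log2 fold change 0.43) and *Ap3b1* (-0.28). *Cst7* did not pass without scramble replicate 1, ASO replicate 1 or ASO replicate 2 (edgeR adjusted p up to 0.125), and *Ap3b1* did not pass with any single library left out (edgeR adjusted p from 0.0548 to 0.142) or with no filter. The most abundant that did not pass were the other mannose 6-phosphate receptor *M6pr* (0.14, edgeR adjusted p = 0.260) and *Unc13d*, which primes granules for release (0.13, edgeR adjusted p = 0.281). Without scramble replicate 1, ASO replicate 1 or ASO replicate 2, 3 of the list were called each time. Over all tested genes those fits called 620 of 15413, 871 of 15551 and 391 of 15573. Calls lost with replicate number as a block are listed at the end, for these and the other named genes.

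Of 22 transcription factors listed for granule genes, all tested, 3 rose and 6 fell (40.9% called, against 17.2% of all tested genes). The median log2 fold change was -0.14, against -0.01 over all tested genes. The list holds both activators and repressors, and their action on granule genes was not tested. The largest change was in *Ikzf3*, which encodes Aiolos, with 1711, 2717 and 990 counts under the scramble label and 213, 244 and 394 under the ASO label. Its log2 fold change was -2.54 (SE 0.38, edgeR adjusted p = 0.0122), and it did not pass without ASO replicate 2 (edgeR adjusted p = 0.0602, the highest over all alternatives, while the lowest was 1.9e-07 with DESeq2). *Bcl6*, a repressor of effector programmes, fell with a log2 fold change of -1.97 (SE 0.42, edgeR adjusted p = 0.0220), and *Tcf7* with -1.19 (SE 0.27, edgeR adjusted p = 0.0298). *Bcl6* did not pass without scramble replicate 1, scramble replicate 2, ASO replicate 1 or ASO replicate 2 (edgeR adjusted p from 0.0527 to 0.0949). Among the filters and left-out libraries, *Tcf7* did not pass without scramble replicate 1, ASO replicate 1 or ASO replicate 2 (edgeR adjusted p from 0.0775 to 0.110), nor with no filter, where it was 0.1196, the highest over its alternatives. *Bach2*, another repressor, fell with a log2 fold change of -1.01 (SE 0.13, edgeR adjusted p = 0.00173) and was called in all 13 alternatives. The 5 other called genes, named after their values were seen, were *Eomes*, *Foxo1*, *Id2*, *Batf* and *Rbpj*, of which the last 3 rose. *Foxo1* and *Batf* did not pass without ASO replicate 2 (edgeR adjusted p = 0.0681 and 0.0569). *Id2* and *Rbpj* did not pass without scramble replicate 1, scramble replicate 2, ASO replicate 1 or ASO replicate 2 (edgeR adjusted p up to 0.131 and 0.144). *Irf4* (0.66, edgeR adjusted p = 0.0507) was the most abundant with *Ikzf1* (-0.21, edgeR adjusted p = 0.108) among those that did not pass. *Irf4* passed in 8 of 13 alternatives, among them without scramble replicate 3 and without ASO replicate 3. Without scramble replicate 1 or without ASO replicate 1, 4 of the list were called, and without ASO replicate 2, 1 was. In the same 3 fits, in that order, 620 of 15413, 871 of 15551 and 391 of 15573 tested genes were called.

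Of 17 genes listed as granzyme substrates or as partners of them, such as *Nme1* and *Anp32a*, 16 were found and tested. Of these, 4 rose, while 8.03% of all tested genes did. Whether a granzyme cuts each product was not tested. The median log2 fold change was 0.14 in the list and -0.01 over all tested genes. The 4 that rose were *Lmna* (0.73, SE 0.20, edgeR adjusted p = 0.0380), which encodes lamins A and C, *Nme1*, *Set* and *Hmgb2*. *Nme1* had a log2 fold change of 0.59 (SE 0.13, edgeR adjusted p = 0.0175), *Set* 0.47 (SE 0.12, edgeR adjusted p = 0.0272) and *Hmgb2* 0.31 (SE 0.09, edgeR adjusted p = 0.0382). All 4 had an edgeR adjusted p above 0.05 without scramble replicate 1, ASO replicate 1 or ASO replicate 2. *Lmna*, *Set* and *Hmgb2* did so without scramble replicate 2 as well, and *Hmgb2* without ASO replicate 3. The highest edgeR adjusted p-values with a library left out were 0.135 for *Lmna*, 0.0873 for *Nme1*, 0.115 for *Set* and 0.170 for *Hmgb2*. *Anp32a* (0.03, edgeR adjusted p = 0.829) and *Lmnb1* (0.22, edgeR adjusted p = 0.0662) were the most abundant that did not pass, and of the 13 alternatives *Lmnb1* passed with DESeq2 alone (adjusted p = 0.0422, against 0.0422 to 0.188 over the 13). *Anp32a* turned to -0.01 with library size as the only scaling, and to -0.01 without scramble replicate 2 and -0.00107 without ASO replicate 2. Other genes hold 31.3% of the 31-base stretches of *Set* and 21.4% of those of *Hmgb2*.

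The Treg programme was counted beside the granule genes, since the cells were grown toward Tregs. Of 9 Treg genes, all tested, 1 rose and 3 fell (44.4% called, against 17.2% of all tested genes), with a median log2 fold change of -0.31 against -0.01. *Foxp3* was counted 5005, 6862 and 3587 times under the scramble label and 1444, 1695 and 2212 times under the ASO label. It fell without overlap, with a log2 fold change of -1.41 (SE 0.20, edgeR adjusted p = 0.00567), and was called in all 13 alternatives. Other genes, *Flicr* and *Ccdc22* first, hold 26.4% of the 31-base stretches of *Foxp3*. *Ikzf2* (Helios) fell with -0.57 (SE 0.17, edgeR adjusted p = 0.0484) and *Nrp1* with -0.31 (SE 0.08, edgeR adjusted p = 0.0241). *Il2ra*, the alpha chain of the IL-2 receptor, rose with 0.52 (SE 0.12, edgeR adjusted p = 0.0185). *Ikzf2* did not pass without scramble replicate 1, scramble replicate 2, ASO replicate 1 or ASO replicate 2 (edgeR adjusted p from 0.124 to 0.139). *Nrp1* and *Il2ra* did not pass without scramble replicate 1, ASO replicate 1 or ASO replicate 2 (edgeR adjusted p up to 0.114 and 0.0967). *Ctla4* (-0.28, edgeR adjusted p = 0.0575) and *Tnfrsf18* (-0.06, edgeR adjusted p = 0.769) were the most abundant that did not pass. *Ctla4* was lower in each ASO library and passed in 3 of 13 alternatives, with DESeq2, with library size as the only scaling and with no filter (adjusted p from 0.0423 to 0.167 over the 13). *Tnfrsf18* turned to 0.10 without scramble replicate 3. Over these 7 lists together, 106 of 108 genes were found, 71 were tested, 10 rose and 14 fell. That is 33.8% of the 71, against 17.2% of all tested genes, and the difference was not tested.

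**Figure D4:**
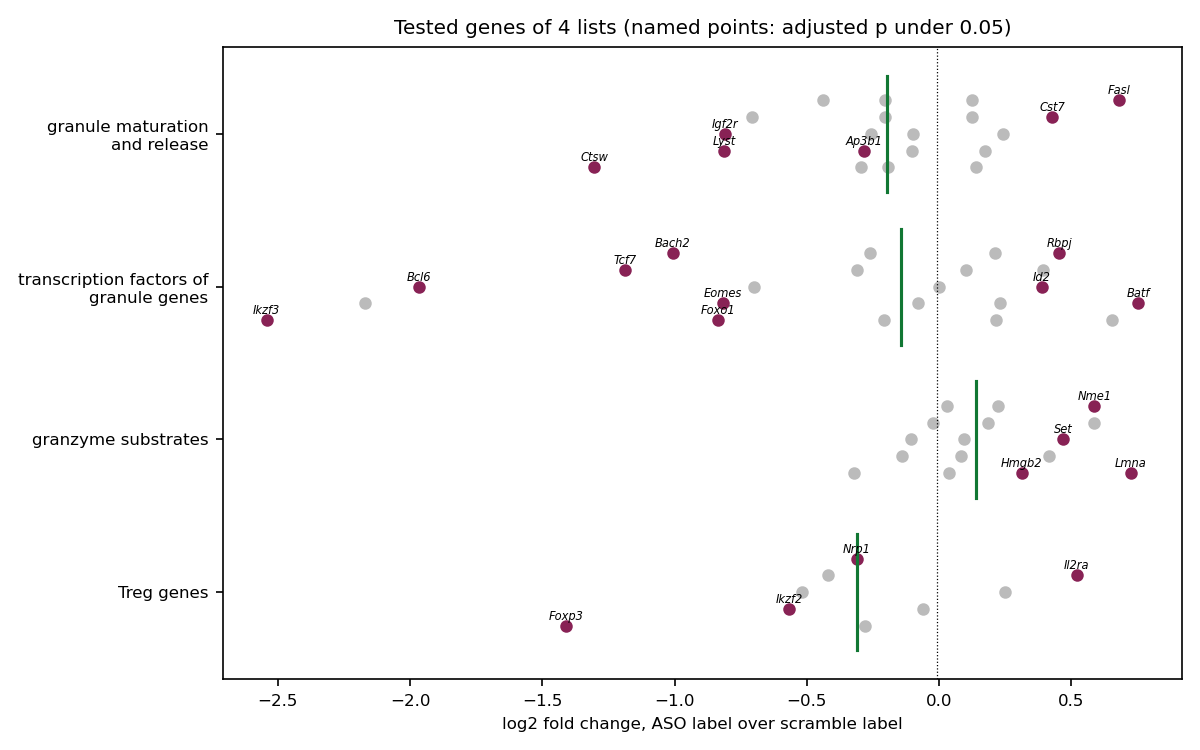
Log2 fold change (ASO label over scramble label, horizontal axis) of each tested gene in 4 lists, with named dark points for an edgeR adjusted p under 0.05, grey points for the others, a vertical bar at each list's median and a dotted line at the median of all tested genes, -0.01. *Ctsw* at -1.30 and *Ikzf3* at -2.54 lie farthest to the left in the lists of granule maturation and of transcription factors.

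Genes whose pattern over the 6 libraries was most like that of *Gzmb* or *Prf1* were sought among 11921 genes, by the root mean square (RMS) difference of centred log2 CPM. Nearest to *Gzmb* were *Ttc39c* (0.0677), *Plaur* (0.113) and *Nppc* (0.130). Like *Gzmb*, all 3 were highest in scramble replicate 3, and low in scramble replicate 2 and ASO replicate 3. Their log2 fold changes between the labels were -0.33, -0.48 and -0.26 (edgeR adjusted p from 0.283 to 0.667), and that of *Nppc* turned to 0.06 without scramble replicate 3. These genes were picked for following *Gzmb* or *Prf1* over the same 6 libraries, so their log2 fold changes are set by that choice and add no separate evidence. Nearest to *Prf1* were *Eomes* (0.0918), *Galc* (0.0935) and *Ly96* (0.101). *Eomes* encodes a T-box factor, *Galc* the lysosomal enzyme galactosylceramidase and *Ly96* a partner of a toll-like receptor. *Eomes* was counted 933, 594 and 888 times under the scramble label and 454, 419 and 408 times under the ASO label. It fell with a log2 fold change of -0.82 (SE 0.19, edgeR adjusted p = 0.0214), and did not pass without scramble replicate 1, ASO replicate 1 or ASO replicate 2 (edgeR adjusted p from 0.0530 to 0.0893). *Galc* (-0.71, SE 0.22, edgeR adjusted p = 0.0505) and *Ly96* (-0.87, SE 0.28, edgeR adjusted p = 0.0594) did not pass. *Galc* passed in 5 of 13 alternatives, with DESeq2, with library size as the only scaling, with no filter, with at least 10 counts in every library and without scramble replicate 2 (log2 fold change -0.86, edgeR adjusted p = 0.0326), and adjusted p ran from 0.00548 to 0.152 over the 13.

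**Figure D5:**
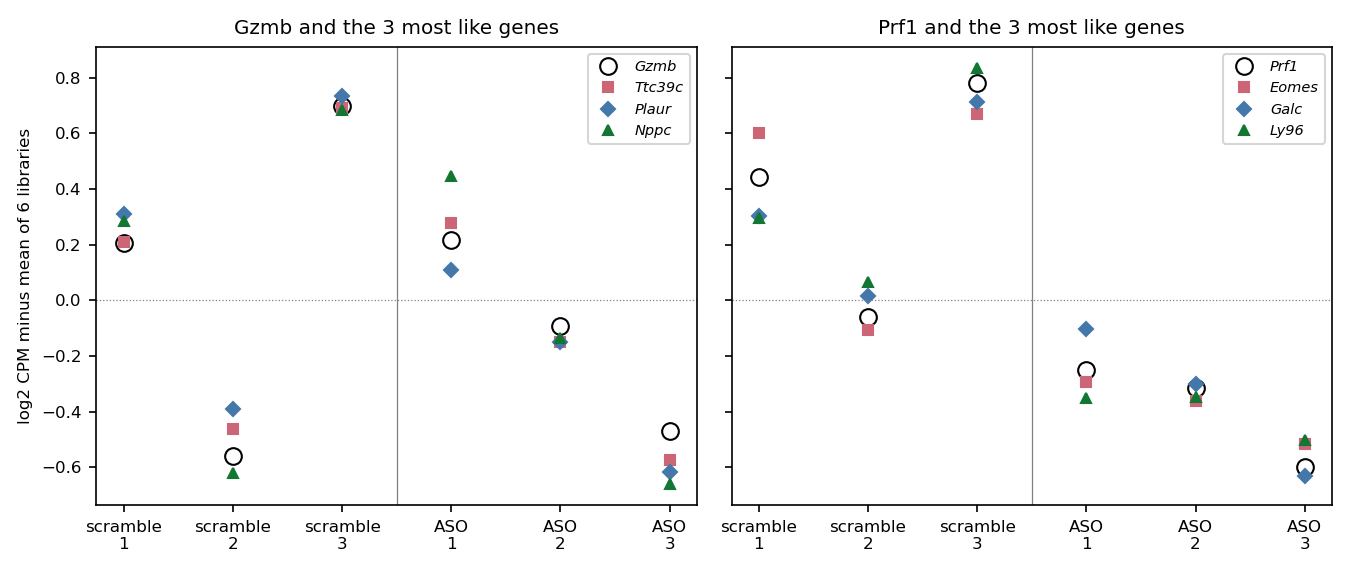
Log2 CPM minus its mean over the 6 libraries (vertical axis) of *Gzmb* and *Prf1*, drawn as open circles, and of the 3 genes most like each, drawn as filled markers, in every library. *Gzmb* stands at 0.70 in scramble replicate 3 and -0.56 in scramble replicate 2, and *Prf1* at 0.78 in scramble replicate 3 and -0.60 in ASO replicate 3.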

How the data were processed

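Estimated counts per gene, made by the authors with kallisto (version not stated, build GRCm38) and deposited as whole numbers, were used for all 6 libraries, with no columns left out. Of 56748 genes, 28236 were at 0 in every library. Genes were filtered with edgeR's filterByExpr, scaled with TMM and tested with the quasi-likelihood test (robust, two-sided, edgeR 4.0.16 in R 4.3.3), with Benjamini-Hochberg adjustment over 14936 genes and a threshold of 0.05. Intervals of 95% use the test's t distribution. DESeq2 1.42.0 and limma 3.58.1 (voom) were used as alternatives, with other scalings, other filters, replicate number as a block and each library left out. Fits were also run on simulated counts with the same dispersion for every gene. That run does not cover the uneven spread of these libraries. Genes, exon lengths and 31-base stretches came from GENCODE M21, and promoters from RefSeq.

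The members and lists were chosen with earlier results of these data known. All 10 members are named, and from each other list up to 4 called genes with the largest absolute log2 fold change and up to 2 with the highest mean CPM that did not pass. For *Gzmb* and *Prf1* the 3 nearest tested genes with a mean log2 CPM of at least 1 (prior count 2) are named, by smallest RMS difference. *Vamp7* and *Gsdmb* were not matched. Libraries of equal replicate number were not more alike after the group mean was removed (mean r -0.07, against 0.04 for different numbers, across genes, which are not independent replicates), so numbers were not treated as pairs.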

Additional observations from a re-analysis of the deposited data

How the results depend on the processing

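Of 64 named genes tested under the alternatives, 33 were called. Among the 33 is *Gzmd*, called with no filter and singled out for its counts, so that its call adds no separate evidence. Of the 33, 8 (*Serpina3g*, *Ctsw*, *Lyst*, *Igf2r*, *Serpinb6a*, *Bach2*, *Foxp3* and *Cd28*) were called under every alternative fit. In the main fit these 8 had an edgeR adjusted p under 0.01. Over the alternatives it was higher for some of them, up to 0.0386 for *Lyst*. The other 25 lost the call in at least 1 alternative, and none of the 33 changed sign. With replicate number as a block, 14 lost it (edgeR adjusted p from 0.0539 to 0.0987): *Fasl*, *Bcl6*, *Tcf7*, *Lmna*, *Set*, *Hmgb2*, *Ikzf2*, *Nrp1*, *Cst7*, *Ap3b1*, *Id2*, *Rbpj*, *Cd8a* and *Ighm*. All genes called (2565) came to 1235 with the block, 391 to 3484 with each library left out and 453 at the threshold of 0.01. Members called (1) came to 4 with DESeq2, 3 with library size alone, 4 with no filter, 2 with at least 10 counts in every library and 1 to 2 with each library left out. Over all tested genes, DESeq2 called 3078 of 14691, library size alone 2530 of 14936 and no filter 3732 of 28512. With at least 10 counts in every library, 2448 of 13139 were called. Genes of the other lists called (24) came to 12 with the block, 6 to 29 with each library left out and 6 at the threshold of 0.01. A stricter threshold lowers such counts by construction. By a chi-square per degree of freedom, scramble replicate 3 and ASO replicate 3 were the closest pair across the labels (15.3). Scramble replicate 3 stood at 6.75 from scramble replicate 1 and at 23.6 from scramble replicate 2. ASO replicate 3 stood at 18.1 from ASO replicate 1 and at 7.89 from ASO replicate 2. Without scramble replicate 3 or ASO replicate 3 the count over all genes was higher, without any other library it was lower, and the cause was not tested.

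These log2 fold changes took both signs with each library left out: *Gzmb* (-0.56 to 0.0404), *Serpinb9* (-0.11 to 0.30), *Gzma* with no filter (-0.20 to 0.51), *Gzmm* (-0.57 to 0.0608), *Serpina3f* (-0.14 to 0.57), *Anp32a* (-0.00807 to 0.0904), *Tnfrsf18* (-0.18 to 0.0951), *Nppc* (-0.59 to 0.0557), the granzyme b cluster (-0.54 to 0.0612) and the *Serpinb9* paralogs (-0.11 to 0.30). *Anp32a* was also at -0.00519 with library size alone. *Gzmc* came to -0.27 when summed over its cluster, since *Gzmb* supplies most of that sum. *Serpinb6b*, summed with its paralogs, came to -0.59 (edgeR adjusted p = 0.00419). The difference in summed mast cell and basophil markers, -1.62 CPM, turned to 2.22 CPM with *Kit* left out, a choice made after seeing the data.

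With 3 libraries per label an exact permutation test cannot go below 0.10, so none was used. *Gzma*, *Gzmk*, *Gzmd* and *Gzmf* had too few counts to pass the filter. Sequence shared with other genes limits how far the counts of *Pgam1*, *Gzmc*, *Gzmd*, *Gzmf*, *Serpina3g*, *Serpina3f*, *Serpinb6a*, *Foxp3*, *Tnfrsf18*, *Set* and *Hmgb2* can be told from theirs.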
